A study of Sus scrofa with 79 samples.

Results

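PDE4B and GNAQ are genes of intracellular signalling, and their probes were followed in intestine and blood of pigs on 1-colour Agilent arrays. The members are the probes whose transcript name in the scanner output belongs to either gene in the RefSeq names of the pig. These are 2 of the 2389 genes that could be named on the array and 4 of its 43603 probes, 3 for PDE4B (A_72_P440971, A_72_P560384 and A_72_P592534) and 1 for GNAQ (A_72_P303044). The 3 PDE4B probes carry the same transcript name. Both genes were selected on their measured signals, by the difference of T2 versus T1 in ileum of day 8, so the values of that comparison are given as a description without a test.

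Control piglets (T1) were left undisturbed and received no treatment. T2 piglets were injected with tulathromycin, a long-acting macrolide antibiotic, at 2.5 mg/kg on day 4 after birth. In T3 this injection was combined with docking, clipping and weighing of the piglets. Blood and scrapings of jejunum and ileum were taken at day 8, and jejunum and ileum also at days 55 and 176, and piglets of all 3 groups were kept together in litters with their own sow. Each of the 79 arrays held RNA of a pool of 4 piglets, which hides the spread between piglets, and n below is the number of pools. There were 4 pools per tissue, day and treatment, except for 3 pools in T2 of ileum day 8, of both tissues of day 55 and of jejunum day 176, and in T3 of ileum day 176. Whether the pools of days 55 and 176 were built from sow sets in the same way as those of day 8 is not stated in the sources used here.

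PDE4B encodes a phosphodiesterase that breaks down cyclic AMP, the second messenger made by adenylyl cyclases when receptors act through the stimulatory G protein GNAS. Cyclic AMP activates protein kinase A, and PDE4 enzymes shorten that signal. PDE4B is prominent in leukocytes, where its inhibition dampens the release of inflammatory cytokines. GNAQ encodes the alpha subunit of the G protein Gq, which couples receptors for acetylcholine, serotonin, endothelin and nucleotides to phospholipase C beta, and thereby to calcium release and protein kinase C. In the gut, Gq serves contraction of smooth muscle, secretion and enteric nerve signalling.

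Levels are log2 signals after quantile normalization over all arrays, and a difference of 1 is a 2-fold difference. Because probes differ in how well they bind, the level of 1 probe was not compared with that of another. GNAQ was well above background on 77 of 79 arrays, and the PDE4B probes A_72_P440971, A_72_P560384 and A_72_P592534 on 77, 75 and 78. A probe was called different between groups at a limma adjusted p (Benjamini-Hochberg over all probes kept) below 0.05 and a fold above 1.5. Where pools of groups are said not to overlap, this only describes the values, and no share of all probes is set beside it.

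The labels were checked before the values were read. EPCAM, an epithelial surface protein, was between 3.39 and 6.93 in blood and between 14.42 and 16.18 in intestine. FABP6, the bile acid binding protein of the ileum, did not set the tissues apart at day 8, with 5.24 to 15.77 in jejunum and 5.05 to 16.16 in ileum. FABP6 of the 2 tissues followed each other pool by pool at day 8 (r = 0.984 over 11 pools), with a largest gap of 1.62. At day 55 FABP6 was 17.73 to 18.28 in ileum and 13.46 to 18.50 in jejunum, and at day 176 it was 18.26 to 18.65 and 6.92 to 18.43. In addition, the table of normalized values deposited by the authors did not follow its own column names for the 45 tissue columns of days 8 and 55. Of these, 0 resembled most the array of that name, whereas 12 of 12 blood columns and 22 of 22 columns of day 176 did. Columns named ileum day 8 followed the jejunum day 8 arrays (r of 0.952 to 0.974), and those named ileum day 55 followed the ileum day 8 arrays (0.983 to 0.987). Columns named jejunum day 55 followed the ileum day 55 arrays (0.984 to 0.992). Those named jejunum day 8 followed the jejunum day 55 arrays (up to 0.989), except that of T2 pool 8, where the best r was 0.345. By the authors' names the ileum arrays of day 55 would thus be jejunum, and which names are right was not settled. The names of the scanner output are used here, and every comparison of tissues or ages at days 8 and 55 rests on them.

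Arrays of blood had 34.79% to 44.09% of spots well above background, and those of intestine 42.38% to 75.16%. Arrays of 4 intestinal pools were taken to stand apart from their groups, chosen after the values were seen. In jejunum T2 pool 8 of day 176, 14.03% of probes lay over 4-fold from the group, in jejunum T1 pool 9 of day 176 it was 9.24%, and in ileum T1 pool 11 of day 8 it was 6.24%. In jejunum T2 pool 8 of day 8 it was 4.62%, and no column of the authors' table followed that array. Other intestinal pools had a larger share than this and were not counted among the 4. These were jejunum T2 pools 6 (8.21%) and 5 (6.86%) and T3 pool 4 (4.72%) of day 176, and ileum T3 pool 3 of day 55 (5.36%). The share alone thus did not set the 4 apart. Where leaving out a pool among the 4 moved a result by much, the value without it stands beside it.

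GNAQ was higher and PDE4B lower in ileum of T2 than of T1 piglets at day 8, which is the comparison that chose them. The GNAQ level was 6.83, 6.90, 5.92 and 6.64 in T1 pools 9 to 12. It was 7.73, 7.70 and 7.54 in T2 pools 5 to 7, and 7.28, 7.56, 7.15 and 7.20 in T3 pools 1 to 4. All pools of T2 and T3 were above all pools of T1. The difference between T2 and T1 was 1.08 (SE 0.23) on the log2 scale and that between T3 and T1 was 0.73 (SE 0.21).

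PDE4B showed the opposite order with each of its probes. A_72_P592534 was 9.08, 8.54, 8.88 and 8.34 in T1 pools 9 to 12, 7.10, 7.47 and 7.35 in T2 pools 5 to 7, and 8.33, 7.65, 7.83 and 8.18 in T3 pools 1 to 4. The T1 pools were the highest, the T2 pools the lowest, and T3 lay in between without overlap, although the highest T3 pool was only just under the lowest T1 pool. The difference of T2 versus T1 was −1.4 (SE 0.30), and T3 was 0.69 above T2 (SE 0.30). A_72_P440971 was 5.99, 6.65, 7.56 and 5.43 in T1 and 5.05, 5.01 and 5.30 in T2, a difference of −1.29 (SE 0.33). A_72_P560384 was 5.16, 6.26, 6.80 and 5.09 in T1 and 4.37, 4.39 and 4.88 in T2, a difference of −1.28 (SE 0.32). T2 and T1 did not overlap for these probes either, but T3 overlapped with T1.

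T1 pool 11 carried much of the difference of 3 probes. In that pool GNAQ was the lowest and A_72_P440971 and A_72_P560384 the highest of all ileum pools of day 8. Without it the difference between T2 and T1 was 0.87 for GNAQ, −0.90 for A_72_P440971, −0.96 for A_72_P560384 and −1.35 for A_72_P592534. Of all probes, 163 of 34660 (0.47%) were called for T2 versus T1, 2.1% for T3 versus T1 and 0.0519% for T3 versus T2, and nothing is read from these shares for genes chosen here. With normexp background correction the difference was 0.71 for GNAQ, −0.62 for A_72_P440971 and −0.59 for A_72_P560384.

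Other genes of the same pathways were looked at in this comparison. Of the cyclic AMP list, 19 of 88 genes could be named on the array, and of the Gq list 21 of 86. Between T2 and T1, 2 of 57 probes of the cyclic AMP list were called, both for PKIA, an inhibitor of protein kinase A, and both lower in T2 (for A_72_P307508 −0.88, SE 0.18, limma adjusted p = 0.0452). The median difference of the list was 0.247, against 0.0244 over all probes. No probe of the Gq list was called, which held receptors, GNA11 and GNA14 (the closest relatives of GNAQ), regulators and targets.

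Cell type markers also differed in level between these pools. Summed over its 5 genes on the array, the myeloid list was 15.25 to 15.73 in T1, 14.56 to 14.84 in T2 and 14.44 to 15.03 in T3. The neutrophil list, 6 genes, was 11.22 to 12.28 in T1 and 10.19 to 11.03 in T3, and averaged 10.57 in T2. Both lists were thus higher in every T1 pool than in every pool of T2 and T3. The B cell list, 3 genes with CD79A among them, was 5.01 to 10.11 in T1, 4.26 to 5.64 in T2 and 5.53 to 10.02 in T3. The epithelial list, 8 genes, was 19.73 to 20.09 in all ileum pools of day 8. None of the marker probes was called, and the part of these cells in the differences of PDE4B and GNAQ was not tested. In such mixed tissue, fewer cells of a type and less RNA per cell cannot be told apart.

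**Figure D1:**
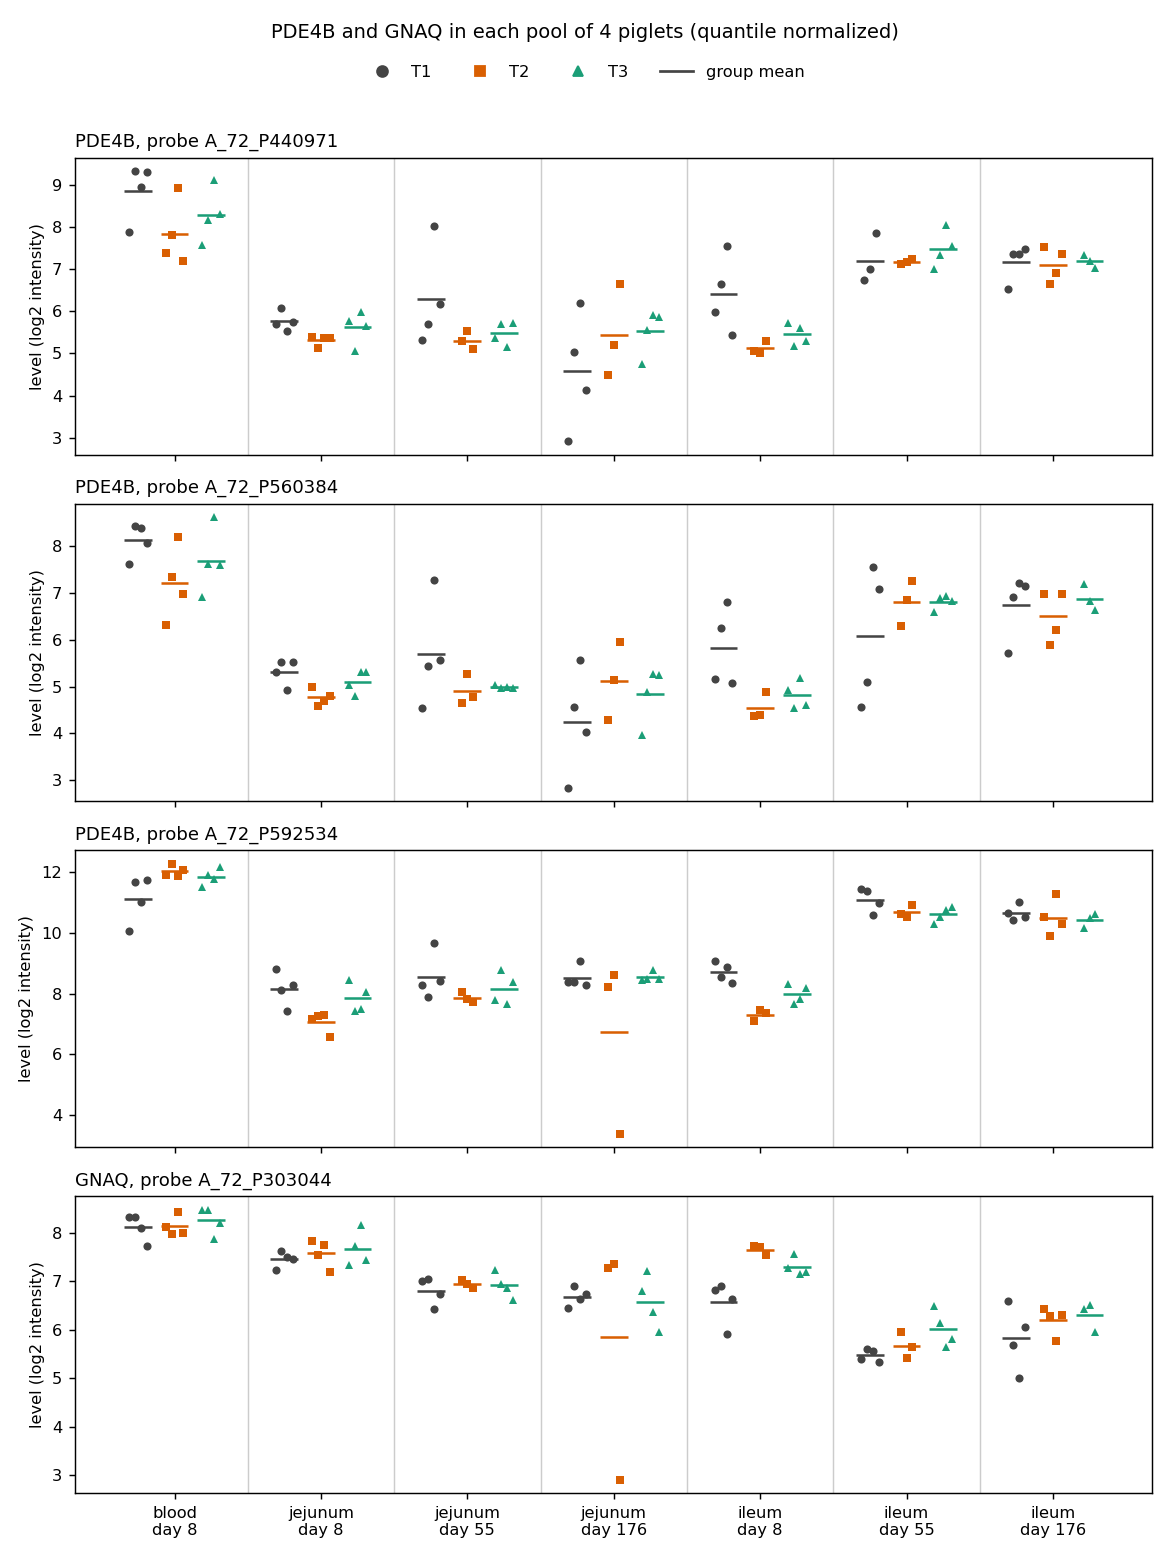
Level of each PDE4B and GNAQ probe in each pool (log2 normalized signal) by tissue, day and treatment, with 1 point per pool and a bar at the group mean. PDE4B lies higher in blood and in ileum of days 55 and 176 than in jejunum, and in ileum of day 8 all T2 pools lie under all T1 pools for PDE4B and above them for GNAQ.

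In no other tissue or day did PDE4B or GNAQ pass the test between treatments. Over jejunum of day 8, both tissues of days 55 and 176, and blood, 72 probe tests were made, of which 0 were called by limma and 7 had an unadjusted p below 0.05. The lowest adjusted p was 0.0603 for GNAQ and 0.175 for PDE4B. An exact permutation test over pools, two-sided, gave 5 of 72 with p below 0.05, each at 0.0286, which is the smallest that 4 against 4 pools allow, and the lowest Benjamini-Hochberg value was 0.411. The treatment differences were also set against each other between ileum and jejunum of days 55 and 176, and 0 of 24 such tests were called, with 0 at an unadjusted p below 0.05. There, 0.534%, 6.73% and 0.648% of all probes were called at day 55 for T2 versus T1, T3 versus T1 and T3 versus T2, and 0.593%, 0% and 0.173% at day 176. A p above the threshold does not show that the treatments left these genes alike.

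Jejunum of day 8 came from the same piglets as ileum and is no independent sample of them. PDE4B probe A_72_P592534 was 8.80, 8.10, 7.44 and 8.29 in T1 and 7.15, 7.26, 7.29 and 6.58 in T2, without overlap. The difference was −1.09 (SE 0.27, limma adjusted p = 0.178), and over its alternatives the adjusted p ran from 0.118 to 0.457. T3 pools of jejunum lay between 7.43 and 8.43, again above all T2 pools, by 0.78 on average (adjusted p = 0.991). The other PDE4B probes differed by −0.45 and −0.55 between T2 and T1, and GNAQ by 0.12 (SE 0.21). Of all probes, 0.0144% were called for T2 versus T1 in jejunum of day 8, and 0% in the comparisons with T3.

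Blood of the same piglets gave a different picture for the probes of PDE4B. A_72_P592534 was 10.07, 11.67, 10.998 and 11.73 in T1 and 11.91, 12.27, 11.86 and 12.05 in T2, so that every T2 pool was above every T1 pool. The difference was 0.91 (SE 0.35, limma adjusted p = 0.316). A_72_P440971 had the opposite sign, with 7.88, 9.33, 8.95 and 9.32 in T1 and 7.40, 7.81, 8.93 and 7.19 in T2, a difference of −1.04 (SE 0.48, adjusted p = 0.387). A_72_P560384 differed by −0.92 (adjusted p = 0.412) and GNAQ by 0.010 (SE 0.23). Of all probes, 0.0317% were called for T2 versus T1 in blood, 0% for T3 versus T1 and 0.00288% for T3 versus T2.

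At day 55 the same direction as in ileum of day 8 was seen in jejunum without passing the test. PDE4B differed between T2 and T1 by −0.99 (SE 0.45, limma adjusted p = 0.269) for A_72_P440971, −0.81 for A_72_P560384 and −0.70 (SE 0.34, adjusted p = 0.31) for A_72_P592534. These differences rested on T1 pool 11, with 8.02, 7.28 and 9.67 for the 3 probes, while the other T1 pools reached at most 6.18, 5.57 and 8.40. In that pool GNAQ was at 6.44, the lowest of jejunum day 55, and the B cell gene CD79A at 10.71 was the highest. Of all probes, 4.36% were called for T2 versus T1 in jejunum of day 55, 13.2% for T3 versus T1 and 1.45% for T3 versus T2.

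In ileum of day 55, GNAQ was 5.4, 5.61, 5.56 and 5.34 in T1 pools 9 to 12 and 6.50, 6.14, 5.65 and 5.81 in T3 pools 1 to 4. All T3 pools were above all T1 pools, by 0.55 on average (SE 0.19, limma adjusted p = 0.0603). Without T3 pool 3 the difference was 0.67 with an adjusted p of 0.035, which would be called. The 4 T3 arrays of that ileum had 42.38% to 51.98% of spots well above background, against 62.63% to 73.14% in T1, and they lay on another slide, so treatment and slide cannot be told apart. A_72_P592534 differed by −0.49 between T3 and T1 and by −0.40 between T2 and T1, whereas A_72_P560384 differed by 0.74 and 0.73. The latter values came from T1 pools 9 and 10, with 4.57 and 5.09, against 7.55 and 7.09 in pools 11 and 12. A_72_P440971 differed by 0.28 and −0.028, with 3 T1 pools because the spot of pool 11 was flagged and the fit dropped it. Of all probes, 15.2% were called for T3 versus T1 in ileum of day 55, 0.123% for T2 versus T1 and 8.2% for T3 versus T2.

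At day 176 the largest treatment differences were in jejunum, and those of A_72_P592534 and GNAQ came from T2 pool 8. A_72_P440971 averaged 4.57 in T1 of that jejunum, against 5.45 in T2 and 5.52 in T3. There T1 pool 9 was at 2.91 and not well above background. A_72_P592534 was 8.23 and 8.62 in T2 pools 5 and 6 and 3.39 in pool 8, where it was not well above background, against 8.29 to 9.06 in T1. The difference between T2 and T1 was −1.78 (SE 0.77, limma adjusted p = 0.175). Without T2 pool 8 it was −0.10 (adjusted p = 0.954), whereas without T2 pool 6, which leaves pool 8 in a group of 2, it was −2.72 (adjusted p = 0.0366). GNAQ was 7.28 and 7.35 in T2 pools 5 and 6 and 2.91, also not well above background, in pool 8, and without pool 8 its difference was 0.63 (adjusted p = 0.597). Both spots lay in an area of that array with low values, where the median deviation of the neighbouring spots from their group was −1.81 around the spot of A_72_P592534 and −1.16 around that of GNAQ. In ileum of day 176 every treatment difference of the 4 probes lay between −0.24 and 0.47. Of all probes, 1.4% were called for T2 versus T1 in jejunum of day 176, 0% for T3 versus T1 and 0.913% for T3 versus T2, and in ileum at most 0.00567%.

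**Figure D2:**
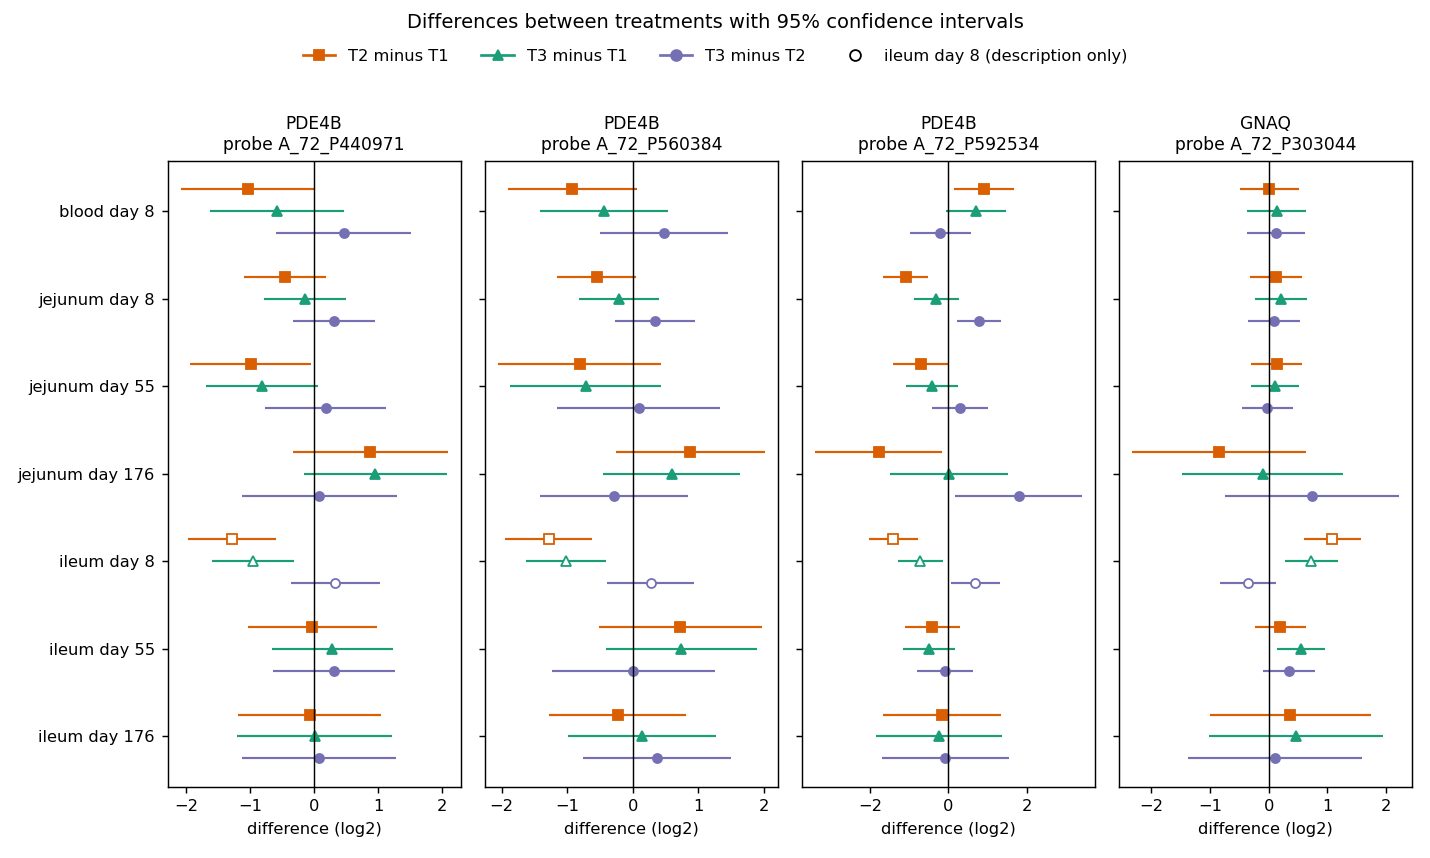
Treatment differences of each probe (log2, with 95% intervals from limma) for T2 versus T1, T3 versus T1 and T3 versus T2 by tissue and day. The open markers of ileum day 8 are a description only, and in the other tissues and days 0 of 72 differences were called.

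At day 55 a part of the probes of these pathways was called between treatments, beside the large shares of all probes given above. In jejunum, T3 versus T1, where 13.2% of all probes were called, 14 of 58 probes of the cyclic AMP list were called and all were higher in T3, while the list's median was −0.107 against −0.0377 over all probes. These were probes of PDE4A, the sister enzyme of PDE4B (2.43, SE 0.56, adjusted p = 0.00604), GNAS (1.04 to 1.65), the VIP receptor VIPR1 (1.55), the serotonin receptor HTR4 (1.52), the anchoring protein AKAP10 (1.35), FOS (1.33), CALCRL (1.29), PKIG (1.27) and GNAI2 (0.74 to 1.18). Of the Gq list 3 of 24 probes were higher, namely the nucleotide receptor P2RY2 (2.10), GNA11 (1.25) and NFATC1 (1.18). Between T2 and T1 of the same jejunum, 7 of 58 cyclic AMP probes were higher, for FOS (1.39), VIPR1 (1.35), GNAS (0.95 to 1.26), AKAP10 (1.06) and PKIG (1.05), and of the Gq list 1 of 24, P2RY2 (1.48), where 4.36% of all probes were called. The counts of the Gq list were near these shares over all probes. Markers of other cell types were called in the same comparison of T3 with T1. These were 4 of 6 probes of the plasma cell list, 4 of 12 of the T cell list and 6 of 16 of the smooth muscle list higher, and 1 of the latter lower, and their part was not tested.

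In ileum of day 55, T3 versus T1, where 15.2% of all probes were called, 11 of 58 cyclic AMP probes were higher and 1 lower, with a median of 0.231 against −0.0432 over all probes. The probes that rose were those of PDE4A (2.00), VIPR1 (1.2), GNAS (0.66 to 1.18), CALCRL (1.16, while another CALCRL probe fell by 1.74), HTR4 (0.95), PKIG (0.82), AKAP10 (0.73) and GNAI2 (0.70). Of the Gq list the muscarinic receptors CHRM3 rose (0.89) and CHRM1 fell (−1.99). Between T3 and T2 of that ileum, CALCRL was called in both directions again (1.75 and −2.11) and CHRM1 was lower (−1.95). In jejunum of day 176 the adrenergic receptor ADRA1A was higher in T3 than in T2 (1.70, adjusted p = 0.034). No probe of either list was called in blood, in jejunum of day 8 or in ileum of day 176.

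PDE4B was higher in ileum than in jejunum at days 55 and 176, and not at day 8. At day 55, A_72_P592534 lay between 10.30 and 11.45 (median 10.74) in ileum and between 7.64 and 9.67 (median 8.05) in jejunum. At day 176 it lay between 9.88 and 11.26 (median 10.51) in ileum and between 3.39 and 9.06 (median 8.46) in jejunum. The tissues did not overlap for this probe on either day. Ileum was higher by 2.60 (SE 0.19, limma adjusted p = 3.288e-09) at day 55 and by 2.58 (SE 0.43, adjusted p = 0.000134) at day 176, which was 2.02 (SE 0.16, adjusted p = 4.458e-08) without jejunum T2 pool 8. The other probes differed in the same direction, A_72_P440971 by 1.60 (SE 0.26, adjusted p = 4.516e-05) and 1.98 (SE 0.33, adjusted p = 0.000103), and A_72_P560384 by 1.36 (SE 0.33, adjusted p = 0.00181) and 1.98 (SE 0.30, adjusted p = 5.332e-05). Single pools of the tissues overlapped for these probes. A_72_P440971 reached 8.02 in jejunum and went down to 6.76 in ileum at day 55 (6.66 and 6.54 at day 176), and A_72_P560384 reached 7.28 and went down to 4.57 (5.96 and 5.72). Of all probes, 41% were called between the tissues at day 55 (19.9% higher and 21.1% lower in ileum) and 26.8% at day 176 (13% higher). On each day ileum and jejunum of the same treatment lay on different slides, and at day 55 no slide held both. Tissue and slide therefore cannot be told apart at day 55, nor within a treatment at day 176, and this holds for GNAQ below.

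GNAQ was lower in ileum than in jejunum at day 55. It lay between 5.34 and 6.50 (median 5.65) in ileum and between 6.44 and 7.24 (median 6.94) in jejunum, where only the highest ileum pool reached the lowest jejunum pool. The difference was −1.17 (SE 0.12, limma adjusted p = 1.194e-07), but without normalization between arrays it was −0.076 (adjusted p = 0.65). At day 176 the difference of GNAQ was −0.26 (SE 0.40, adjusted p = 0.647), and without jejunum T2 pool 8 it was −0.75 (adjusted p = 0.00429), which would be called.

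At day 8 none of the 4 probes was called between ileum and jejunum, where 3.47% of all probes were. The differences were 0.10 (95% interval −0.28 to 0.48), −0.0048 (−0.37 to 0.36) and 0.31 (−0.028 to 0.65) for PDE4B and −0.39 (−0.66 to −0.13, limma adjusted p = 0.0617) for GNAQ. The ileum means hold the T1 and T2 pools whose difference chose the genes, so these tests are not free of that choice. The day 8 arrays of the tissues are also those that FABP6 did not set apart. Over the 3 days, 7 of 12 tissue tests were called, 6 higher in ileum for PDE4B and 1 lower for GNAQ. The shares of all probes called were 3.47%, 41% and 26.8% at days 8, 55 and 176.

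Some cell type markers moved with the tissue on the same days. All 3 probes of the B cell list at day 55 (median 3.91) and both that were kept at day 176 (median 4.86) were called higher in ileum. The summed B cell list was 11.28 to 13.25 in ileum and 7.26 to 11.69 in jejunum at day 55, and 11.59 to 13.58 and 5.73 to 10.85 at day 176. The summed myeloid list went the other way at day 55, with 14.76 to 15.83 in ileum and 16.22 to 17.32 in jejunum. At day 176 the myeloid ranges overlapped (15.29 to 16.88 and 14.51 to 17.12). The T cell list had medians of 12.52 in ileum and 12.65 in jejunum at day 55. Of the epithelial list, 25 of 33 probes at day 55 and 26 of 33 at day 176 were lower in ileum (medians −0.764 and −0.848, against 0.0135 and −0.0287 over all probes). The part of these cells in the tissue differences of PDE4B and GNAQ was not tested.

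Of the cyclic AMP list, 18 of 58 probes were higher and 9 lower in ileum at day 55, and 18 of 57 were higher and 6 lower at day 176. Over all probes 19.9% were higher and 21.1% lower at day 55, and at day 176 26.8% were called, 13% higher. PKIA was among the highest with 9 probes called on each day, 0.64 to 1.82 at day 55 and 1.32 to 1.76 at day 176. PDE4A went the other way from PDE4B at day 55 (−1.14 and −1.13). At day 176 the inhibitory G protein GNAI2 was higher in ileum (2.51 and 2.17). Of the Gq list, 4 of 24 probes were higher and 9 lower in ileum at day 55, and 3 were higher and 4 lower at day 176. NFATC1, a calcium-dependent transcription factor, was higher (2.02 and 1.51), as was the bradykinin receptor BDKRB1 at day 176 (2.52). Lower in ileum at day 55 were GNG12 (−1.31) and the endothelin receptor EDNRB (−1.31), and at day 176 RGS5 (−1.60), a regulator of Gq signalling.

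As means over the 3 treatments, PDE4B was higher in ileum and GNAQ lower in both tissues at days 55 and 176 than at day 8, and not every call held within single treatments. The day 8 ileum means hold the T1 and T2 pools whose difference chose the genes, so the p-values of these changes are not free of that choice. For this reason the values of T1 alone and of T3 alone are given as well (4 pools per group, 3 in T3 of ileum day 176). The choice used the day 8 ileum pools of T1 but not those of T3, so T1 alone is not free of it either. T3 alone was added after the data were seen. From day 8 to day 55 the range of A_72_P592534 in ileum went from 7.10–9.08 to 10.30–11.45, without overlap. The rise was 2.79 (SE 0.30, limma adjusted p = 1.182e-11) to day 55 and 2.51 (SE 0.30, adjusted p = 2.289e-10) to day 176. A_72_P440971 rose by 1.63 and 1.5 (SE 0.28 and 0.27, adjusted p = 1.31e-06 and 3.545e-06), and A_72_P560384 by 1.5 and 1.65 (SE 0.29 for both, adjusted p = 1.343e-05 and 2.076e-06). With T3 pools alone all 6 of these changes were called, at 2.60 and 2.41 for A_72_P592534, 2.04 and 1.74 for A_72_P440971, and 2.00 and 2.07 for A_72_P560384 (adjusted p of 1.927e-05 to 0.00273). With T1 pools alone A_72_P592534 was called (2.38, adjusted p = 9.191e-05, and 1.94, adjusted p = 0.00127), but A_72_P440971 gave 0.80 and 0.77 (adjusted p = 0.19 and 0.17) and A_72_P560384 gave 0.24 and 0.92 (adjusted p = 0.725 and 0.124). Of all probes, 46.5% were called between days 55 and 8 in ileum (23.1% higher and 23.4% lower at day 55) and 49% between days 176 and 8 (25.5% higher and 23.5% lower at day 176). Days were hybridized on different slides, so age and slide cannot be told apart.

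In jejunum PDE4B was not called between any days as a mean over treatments, with differences between −0.52 and 0.49, but some alternatives called it. With T1 pools alone it was lower at day 176 than at day 55 for A_72_P440971 (−1.73, adjusted p = 0.00339) and A_72_P560384 (−1.46, adjusted p = 0.0209) and lower than at day 8 for A_72_P440971 (−1.19, adjusted p = 0.0284), where T1 pool 9 of day 176 was not well above background for either probe. With T3 pools alone none of these was called. A_72_P440971 was also called from day 55 to day 176 without T2 pool 8 of day 176 (−0.72, adjusted p = 0.0242) or T1 pool 11 of day 176 (−0.70, adjusted p = 0.020). Without the arrays that stood apart, A_72_P592534 was 0.76 higher at day 176 than at day 8 (SE 0.19, adjusted p = 0.000434), which would be called. Of all jejunum probes, 37% were called between days 55 and 8 (19.3% lower at day 55), 49% between days 176 and 8 (23.5% lower at day 176) and 36.4% between days 176 and 55. As means over treatments, the change in ileum exceeded that in jejunum for each PDE4B probe. The difference between the changes was 1.5 (SE 0.38), 1.37 (SE 0.40) and 2.29 (SE 0.42) from day 8 to day 55, with limma adjusted p of 0.00134, 0.00543 and 1.494e-05, where 34.3% of all probes were called, 17% with the larger change in ileum. From day 8 to day 176 it was 1.89 (SE 0.38), 1.98 (SE 0.40) and 2.27 (SE 0.42), with adjusted p of 0.000113, 0.000146 and 3.298e-05, where 21.6% were called, 10.8% with the larger change in ileum. These contrasts too rest on the day 8 pools that chose the genes. To day 55, in the same order, T1 pools alone gave 0.26, −0.14 and 1.98 (adjusted p = 0.813, 0.908 and 0.0292), and T3 pools alone gave 2.17, 2.12 and 2.30 (adjusted p = 0.0115, 0.0221 and 0.0158). To day 176, T1 pools alone gave 1.97, 1.99 and 1.57 (adjusted p = 0.0314, 0.0423 and 0.138), and T3 pools alone gave 1.83, 2.33 and 1.73 (adjusted p = 0.113, 0.0467 and 0.211).

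GNAQ went from a range of 5.92–7.73 in ileum of day 8 to 5.34–6.50 at day 55 and 5.01–6.59 at day 176. The fall was −1.45 (SE 0.26, limma adjusted p = 3.205e-06) to day 55 and −1.06 (SE 0.26, adjusted p = 0.000372) to day 176. In jejunum its range went from 7.19–8.15 to 6.44–7.24 at day 55 and 2.91–7.35 at day 176. There the fall was −0.67 (SE 0.25, adjusted p = 0.0224) to day 55 and −1.19 (SE 0.25, adjusted p = 5.093e-05) to day 176, or −0.72 without the arrays that stood apart. With T1 pools alone 1 of these 4 changes of GNAQ was called, that of ileum to day 55 (−1.09, adjusted p = 0.0352), and the others were −0.73 (adjusted p = 0.174) in ileum to day 176 and −0.65 and −0.77 (adjusted p = 0.246 and 0.147) in jejunum. With T3 pools alone it was −1.28 (adjusted p = 0.0117) and −0.99 (adjusted p = 0.081) in ileum and −0.74 (adjusted p = 0.208) and −1.08 (adjusted p = 0.0394) in jejunum. Between days 55 and 176 no probe was called in either tissue, where 27.8% of all ileum probes were, although in jejunum GNAQ was called without T2 pool 5 (−0.76, adjusted p = 0.00977) or pool 6 (−0.77, adjusted p = 0.00802). The change of GNAQ from day 55 to day 176 differed between the tissues by 0.91 (SE 0.36, adjusted p = 0.0479), where 29.3% of all probes were called, 14.1% in this direction. Without jejunum T2 pool 8 it was 0.42 and not called (adjusted p = 0.114), and the call was lost without many other single pools and with T1 or T3 pools alone. Over both tissues 10 of 24 age tests were called, 6 higher for PDE4B and 4 lower for GNAQ. In these comparisons 27.8% to 49% of all probes were called, so the count is not read as a result about the members.

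Markers moved strongly with age as well. In ileum all 3 B cell probes were higher at day 55 and at day 176 than at day 8 (medians 5.74 and 5.39), whereas in jejunum 0 of 3 were called. T cell probes were higher in both tissues at day 55, 11 of 12 in ileum (median 2.12) and 12 of 12 in jejunum (median 2.02). Smooth muscle probes were lower, 14 of 16 in each tissue at day 55 (medians −1.35 and −1.54). The part of these cells in the changes of PDE4B and GNAQ was not tested.

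Part of the Gq list was lower at the later days. The share of all probes called lower was 23.4% and 23.5% in ileum at days 55 and 176, and 19.3% and 23.5% in jejunum. Called in either direction were 46.5% and 49% in ileum, and 37% and 49% in jejunum. In ileum, 13 of 26 Gq probes were lower and 6 higher at day 55 than at day 8, and 13 were lower and 8 higher at day 176, with medians of −0.822 and −0.639 against 0.088 and 0.0548 over all probes. Among them EDNRB (−1.91 and −1.85) and GNA11 (−1.94 at day 176) fell, while CHRM1 rose (3.20 and 3.78) and NFATC1 rose at day 55 (2.56). In jejunum 7 of 26 Gq probes were lower and 4 higher at day 55, and 11 were lower and 7 higher at day 176, with EDNRB at −1.47 and CHRM1 at 3.71 on day 55, and GNA11 at −2.45 and P2RY2 at −2.06 on day 176. Of the cyclic AMP list in ileum, 15 of 58 probes were higher and 14 lower at day 55, and 15 were higher and 21 lower at day 176, led by CALCRL (−1.86 and −2.46) and NR4A3 (2.35 at day 176), with PKIA at 0.77 to 1.63 on day 55. At day 55 these counts of the cyclic AMP list in ileum were near the shares over all probes. In jejunum 4 of 58 were higher and 23 lower at day 55, and 6 were higher and 22 lower at day 176, among them GNAS (−1.46 and −2.33) and GNAI2 (−2.57 at day 176).

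**Figure D3:**
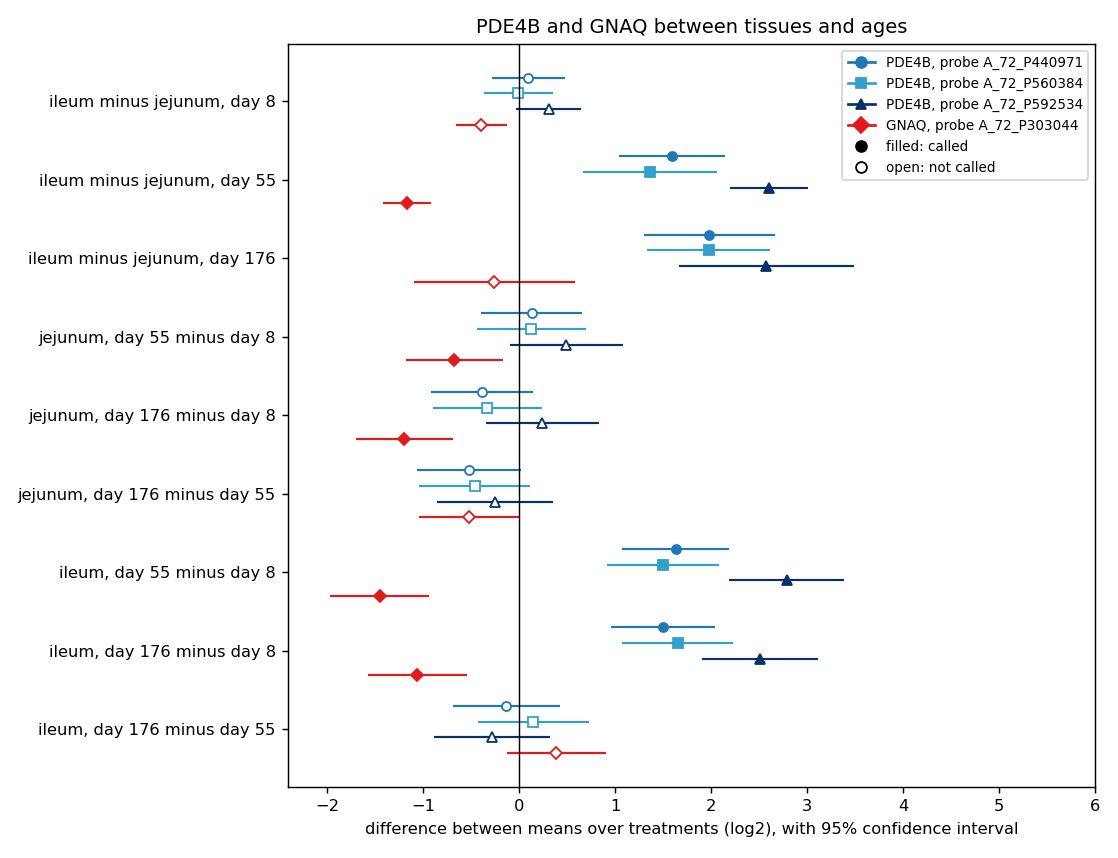
Differences between ileum and jejunum on each day and between days in each tissue (log2, with 95% intervals from limma) for each probe, where filled markers were called and open markers were not. As means over treatments, PDE4B is higher in ileum at days 55 and 176 than in jejunum and than in ileum of day 8, and GNAQ is lower at the later days in both tissues.

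In blood the direction depended on the scaling. On the normalized scale GNAQ was 8.17 ± 0.24 (SD, n = 12) in blood, 7.57 ± 0.27 (n = 12) in jejunum and 7.13 ± 0.54 (n = 11) in ileum of day 8. A_72_P592534 was 11.65 ± 0.60 in blood, 7.69 ± 0.64 in jejunum and 8.07 ± 0.64 in ileum. All 8 tests of blood against the tissues were called higher in blood, where 75.7% of all probes were called against jejunum (39.9% higher in blood) and 74.3% against ileum (39.2% higher in blood). PDE4B was higher than in jejunum by 2.77, 2.61 and 3.96 and GNAQ by 0.60 (SE 0.13, limma adjusted p = 7.537e-05), just over 1.5-fold. Without normalization between arrays all these signs turned, with GNAQ at −3.46 for blood versus jejunum, A_72_P440971 at −1.30, A_72_P560384 at −1.39 and A_72_P592534 at −0.15. The blood arrays were far dimmer, with a 75th percentile of 4.95 to 5.76 against 8.57 to 10.33 in intestine. Relative to the other probes of its array PDE4B thus stood higher in blood, while its signal did not. Blood RNA was extracted by another method than tissue RNA, and tissue and method cannot be told apart. The tests against ileum also rest on the day 8 pools that chose the genes.

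The pathway neighbours in blood were mixed on the normalized scale, where 75.7% of all probes were called against jejunum (39.9% higher in blood). Of the Gq list 17 of 28 probes were lower and 5 higher than in jejunum, with RGS5 at −8.51 and GNA11 at −5.64. Of the cyclic AMP list 14 of 58 were lower and 14 higher, with ADRB1 at 9.51. PDE4A disagreed among its own probes, with 8.04 and 7.83 for a pair of them and −3.00 for another. T cell probes were higher in blood (12 of 12) and epithelial probes lower (33 of 33).

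**Figure D4:**
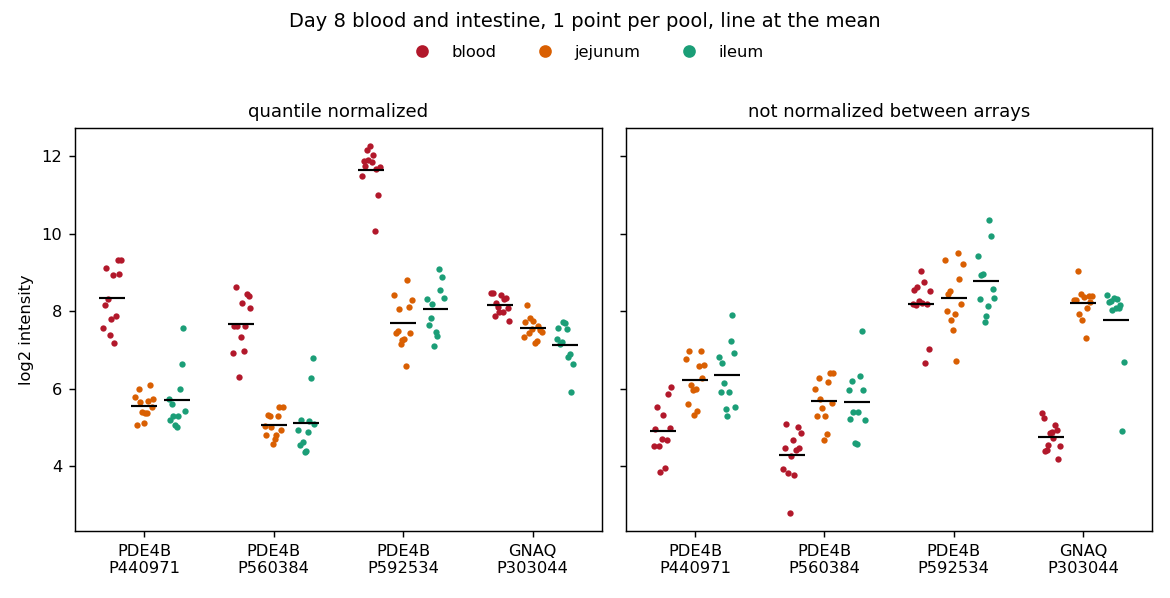
Level of each probe in blood, jejunum and ileum of day 8, with quantile normalization and as the unnormalized log2 signal, with 1 point per pool. Blood lies above the tissues on average after normalization, and on the unnormalized scale the means of all 4 probes in blood lie below those of the tissues.

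In the order of levels over tissue and day, blood is left out because its place depended on the scaling. On the normalized scale A_72_P592534 was 11.65 in blood, above every intestinal mean, and without normalization it was 8.18, below every intestinal mean (8.33 to 11.85). GNAQ was likewise highest in blood with normalization (8.17) and lowest without (4.76, against 6.64 to 8.22). Among the intestinal means A_72_P592534 was highest in ileum of day 55 (10.80 ± 0.36 SD, n = 11) and day 176 (10.52 ± 0.38, n = 11), which did not differ beyond their spread. It followed in jejunum of day 55 (8.22 ± 0.60), ileum of day 8 (8.07 ± 0.64), jejunum of day 176 (8.05 ± 1.56) and jejunum of day 8 (7.69 ± 0.64), again without a difference beyond the spread between neighbours. A_72_P440971 had the same leading groups, with ileum of day 55 at 7.31 and of day 176 at 7.16, and the others between 5.16 and 5.73. A_72_P560384 placed ileum of day 176 (6.70) just before ileum of day 55 (6.54), and the others between 4.71 and 5.23. GNAQ ran from jejunum (7.57) and ileum (7.13) of day 8 over jejunum of day 55 (6.89 ± 0.22), to jejunum of day 176 (6.42 ± 1.24), ileum of day 176 (6.10 ± 0.47) and ileum of day 55 (5.73 ± 0.35). Here the neighbours from jejunum of day 55 to ileum of day 55 did not differ beyond their spread, nor did jejunum and ileum of day 8 by the test above.

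The probes of PDE4B were alike over group means but not over single pools. Over the 18 intestinal groups the means of A_72_P440971 and A_72_P560384 had r = 0.978, and those of A_72_P592534 had r = 0.89 and 0.859 with them. Deviations of pools from their group mean had r = 0.889 between A_72_P440971 and A_72_P560384 (66 pools), but −0.0407 and −0.0736 between these and A_72_P592534. The same array and pool lie behind both values of a pair, so these are descriptions. GNAQ had r of −0.731 to −0.691 with the PDE4B probes over the group means. A_72_P592534 also had the opposite sign of the other probes for T2 versus T1 in blood and in jejunum of day 176, none of them called. In that jejunum A_72_P440971 and A_72_P560384 differed by 0.87 and 0.88, and single pools weighed heavily. Leaving out 1 pool there gave −2.72 to −0.10 for A_72_P592534, 0.27 to 1.42 for A_72_P440971 and 0.41 to 1.32 for A_72_P560384. The probes are therefore given apart.

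**Figure D5:**
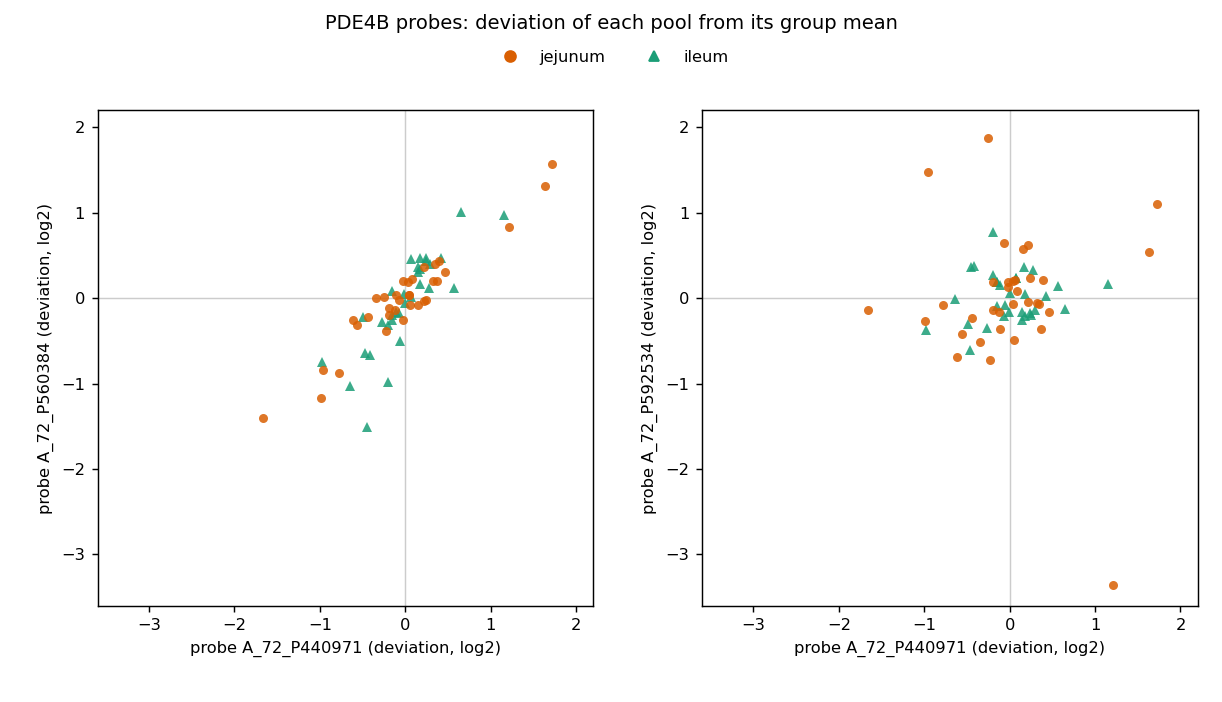
Deviation of each intestinal pool from its group mean (log2) for A_72_P440971 against A_72_P560384 (left) and against A_72_P592534 (right), with 1 point per pool. The left pair follows a line (r = 0.889), and the right pair does not (r = −0.0407).

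Single pools stood out in different probes. In jejunum of day 176, T1 pool 9 had A_72_P440971 at 2.91 and A_72_P560384 at 2.84, neither well above background, while A_72_P592534 (8.38) and GNAQ (6.45) were near their group. In T2 pool 8 it was the other way around, with A_72_P440971 at 6.66 and A_72_P560384 at 5.96, the highest of jejunum day 176, beside the low values of A_72_P592534 and GNAQ given above.

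Genes of like pattern were sought among 5182 named probes of 2286 genes by Pearson correlation over the 18 intestinal group means. For GNAQ these were SCARB1 (0.958), ACY1 (0.952), NAT6 (0.947), GPR39 (0.942) and TNFRSF1A (0.937). For A_72_P592534 they were PHACTR3 (0.98), SULT1A3 (0.978), GP91-PHOX (0.977), VPREB1 (0.975) and TLR10 (0.974). For A_72_P440971 they were PKIA with 3 probes (0.949 to 0.965), F5 (0.965) and TUBA1B (0.952), and for A_72_P560384 they were F5 (0.947), CD70 (0.934), PKIA (0.931), CHI3L1 (0.927) and TUBA1B (0.925).

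Over the deviations of the 67 intestinal pools the like probes were others. For GNAQ they were KLF6 (0.918), DGAT1 (0.906), CLCA1 (0.904), APP (0.902) and CLDN7 (0.902), with a Spearman's rho of 0.588 to 0.681. For A_72_P592534 they were SULT1A3 (0.899), H2AFZ (0.896), STMN1 (0.889) and HMGB1 (0.887), with a Spearman's rho of 0.591 to 0.789. For A_72_P440971 the values were lower, with F5 (0.685), PLCD4 (0.676), STMN1 (0.665), PKIA (0.64) and PITPNC1 (0.636), and for A_72_P560384 they were RPL7 (0.59), PAQR7 (0.583), PEG10 (0.549), F5 (0.546) and OSTF1 (0.542). In jejunum T2 pool 8 of day 176, GNAQ (2.91) and A_72_P592534 (3.39) were at their lowest intestinal level and not well above background. A single pool this far off can carry a Pearson value. Between GNAQ and A_72_P592534 r was 0.579, but −0.046 without the pools farthest off, with a Spearman's rho of −0.211. Their like probes were not tested without that pool, so no likeness over the other pools is read from their Pearson values.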

How the data were processed

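The authors deposited the scanner output of 79 1-colour arrays, made per the file headers with Agilent Feature Extraction 10.7.3.1. Its processed signal is an intensity on a linear scale, corrected for background and not normalized between arrays. The authors also deposited a table of log2 values, quantile normalized in GeneSpring according to the methods, used only as an alternative because its tissue columns of days 8 and 55 do not follow their names. No column of that table belonged to samples outside the 79.

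Here the log2 of the signal, with a lowest signal of 1, was taken. Spots marked as outliers or not uniform were left out (2198 probes lost a value on at least 1 array), spots of a probe were averaged, and values were quantile normalized over 79 arrays. Probes at or above the 20th percentile in all arrays of at least 1 group of a fit were kept. With limma 3.58.1 (R 4.3.3, statmod 1.5.0), group means were fitted for jejunum with ileum of each day, for blood, for both tissues over all days (age), and for day 8 with blood. The tissue, age and blood differences are means over T1, T2 and T3. Called means an adjusted p below 0.05 within a comparison and a fold above 1.5. Exact permutation tests were two-sided. Intervals are 95% intervals from limma. The p-values measure the spread between pools, and the number of arrays limits the precision.

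Symbols came from RefSeq transcript names (Sscrofa11.1, versions left out) for 5461 probes, 12.5%, of 2389 genes. No build is given for the array, and no coordinates are given. The members and lists were chosen with earlier results of these data known. Named were all member probes, probes of the cyclic AMP, Gq and marker lists called between treatments outside ileum day 8 (of the markers only counts are printed), otherwise up to 3 of the largest called differences per comparison counting the probes of a gene as 1, and the 5 most alike probes per member and measure, of which 1 is not reported here. GNA11, GNA14, GNAI2, GNAS, PDE4A, PKIA, P2RY2 and NFATC1 were also named where they were not among the 3, after their values were seen. The marker genes found were 7 of 10 for T cells, 3 of 9 for B cells, 1 of 4 for plasma cells, 5 of 10 for myeloid cells, 6 of 10 for neutrophils, 8 of 20 for epithelium, 1 of 2 for ileal enterocytes, 5 of 10 for smooth muscle, 2 of 5 for endothelium, 1 of 5 for fibroblasts, 3 of 6 for neurons and glia, 0 of 7 for erythroid cells and 4 of 5 for platelets.

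Pools of day 8 share sow sets across treatments and share piglets across tissues. After group means were removed, arrays of the same sow set had a mean correlation of 0.0825 to 0.0963 at day 8, and arrays of the same pool in jejunum and ileum 0.194. Each group lay on 1 slide. Treatments sharing a slide were T2 and T1 in ileum of day 8, in both tissues of day 55 and in jejunum of day 176, and T3 and T2 in jejunum of day 8, ileum of day 176 and blood. For the others treatment and slide cannot be told apart. Ileum and jejunum of day 55 shared no slide, and on no day did they share a slide within a treatment. Blood shared no slide with the tissues of day 8.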

Additional observations from a re-analysis of the deposited data

Results flagged for a closer look

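In 4 of 63 groups of 4 pools a member probe had a pool far from the others by Dixon's test at the 95% level, where chance gives about 1 in 20. PDE4B probe A_72_P440971 was lowest in jejunum day 8 T2 pool 6 (5.12, with the next pool at 5.36) and in ileum day 176 T1 pool 9 (6.54, with the next at 7.36). PDE4B probe A_72_P592534 was highest in jejunum day 176 T3 pool 3 (8.76, with the next at 8.48) and in jejunum day 176 T1 pool 11 (9.06, with the next at 8.38).

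The change with age differed between ileum and jejunum in 7 of 12 tests with limma. The shares of all probes called were 34.3% from day 8 to day 55, 21.6% to day 176, and 29.3% between the later days. For PDE4B the ileum change exceeded that of jejunum from day 8 to day 55 by 1.5 (A_72_P440971), 1.37 (A_72_P560384) and 2.29 (A_72_P592534), and from day 8 to day 176 by 1.89, 1.98 and 2.27. These means hold the day 8 ileum pools by which the genes were chosen. To day 55, T1 pools alone gave 0.26, −0.14 and 1.98 for A_72_P440971, A_72_P560384 and A_72_P592534, and T3 pools alone, which the choice did not use, gave 2.17, 2.12 and 2.30. For GNAQ it exceeded that of jejunum from day 55 to day 176 by 0.91, or 0.42 without jejunum day 176 T2 pool 8. Day 8 ileum and jejunum could not be told apart by FABP6, and days lay on different slides.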

How the results depend on the processing

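Of the results recomputed under alternatives other than leaving out a pool, 1868 were kept, 26 became weaker, 8 stronger, 23 moved and 11 reversed. When 1 pool was left out 5174 were kept, 57 became weaker and 9 stronger. A result called in neither run was counted as kept even if its sign changed. Differences of ileum day 8 were counted as kept if they shifted by no more than the mean SD of the pools. Outside ileum day 8, signs changed most often without normalization between arrays (34 of 152) and with the probes of a gene averaged (20 of 152). Using T1 pools only, chosen before, 6 of 24 age tests and 4 of 12 age by tissue tests were called, and A_72_P560384 gave −0.14 for the ileum change to day 55 minus that of jejunum, and with T3 pools only, chosen after seeing the data, it was 8 of 24 and 4 of 12. Without normalization between arrays, chosen after seeing the data, the blood minus jejunum difference was −3.46 for GNAQ, −1.30, −1.39 and −0.15 for A_72_P440971, A_72_P560384 and A_72_P592534, and the blood minus ileum difference −3.06, −1.37, −1.31 and −0.53. There the ileum change from day 55 to 176 minus that of jejunum was −0.018 for GNAQ and −0.91 for A_72_P440971. For T2 versus T1 in ileum of day 8, normexp gave 0.71 for GNAQ, −0.62 for A_72_P440971 and −0.59 for A_72_P560384. The authors' table by its own column names gave 0.24, −0.50, −0.62 and, for A_72_P592534, −0.92. Those columns followed the arrays that the scanner output names jejunum day 8 (r of 0.952 to 0.974). The values of that table are thus no second processing of the ileum day 8 arrays used here. The cause of the other changes was not tested. Leaving out 1 pool gave 0 to 1 treatment tests called, 7 to 8 for blood, 10 to 12 for age, 7 to 8 for tissue, 6 to 7 for age by tissue and 0 for treatment by tissue. For T2 versus T1 in ileum of day 8 it gave 0.87 to 1.19 for GNAQ, −1.61 to −0.90 for A_72_P440971, −1.53 to −0.96 for A_72_P560384 and −1.53 to −1.28 for A_72_P592534. With the sow set as a replicate block, 0 of 72 treatment tests were called and the ileum day 8 differences of T2 and T1 were 1.04, −1.36, −1.32 and −1.43, and with the pool as a replicate block 7 tissue tests and 8 blood tests were called, so that neither block changed these counts (the age and age by tissue tests had no blocked fit). Slide as a random block was not run, because each group lay on 1 slide. Probes near background (A_72_P560384 was not well above it on 4 arrays) limit small differences.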
